A study of Saccharomyces cerevisiae x Saccharomyces paradoxus and Saccharomyces cerevisiae and Saccharomyces paradoxus with 10 samples.

Results

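The S. cerevisiae messenger RNA of a yeast hybrid was set against that of its own S. cerevisiae parent, so that the same genome was read in a diploid hybrid cell and in a haploid cell of 1 species. The comparison rests on 4 of the 10 samples of the series: 2 libraries of hybrid mRNA and 2 of parental mRNA, with 4637 genes listed for each and no S. paradoxus column used. The hybrid was a diploid cross of S. cerevisiae BY4176, given as MAT-alpha, lys2 and ura::KAN, with S. paradoxus CBS432, given as MATa and ura::HYG. The parent was given as haploid BY4176 with no genotype beside the name. One parental library was made from S. cerevisiae alone and 1 from both parents mixed. The mixed library is described as made of haploid strains but has haploid/diploid as its ploidy label, and the labels do not say which of the 2 parental columns holds it. Cells were grown in YPD, a rich glucose medium, at 30 °C, in cultures of 750 ml that had started from a colony at least 16 hours earlier, and were collected at an OD600 between 0.5 and 0.7. The hybrid libraries are described as biological replicates, and for the parent no label says that each came from a culture of its own, so the p-values measure only the spread between these libraries. Hybrid and parent therefore differed at the same time in the presence of a second genome, in ploidy, in mating type and in a marker gene, and these cannot be told apart here.

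Mating type in yeast is set by regulators encoded at the MAT locus. Haploid α cells switch on α-specific genes through the activator α1 together with Mcm1, and a cells express a-specific genes by default because they lack the repressor α2. Both kinds of haploid express the haploid-specific genes, among them the pheromone-signalling machinery. In a diploid carrying both MATa and MATα, the a1 and α2 proteins join into a repressor that shuts off the haploid-specific genes and the gene for α1, while α2 with Mcm1 keeps the a-specific genes off. Such a cell does not mate and can enter meiosis when starved.

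The DNA sites at which these regulators act are shown first, since the mating genes are those with the largest differences below. The letters come from the RefSeq R64 genome of S. cerevisiae S288C, a laboratory strain, not from the strains used. The 600 bases before each of 6002 protein-coding genes were searched on both strands for TGTNNNNNNNNACATCA, a form of the a1-α2 operator, which was found before 56 genes (0.933%). Of the haploid-specific genes measured here, GPA1, STE5, RME1 and NEJ1 held it. The same operator lies 159 bases past the end of IME4, within a window after the gene in which 28 of the 6002 genes (0.467%) held a match. Each site is given 5′ to 3′ on the strand that reads as the motif, with the fixed letters of the motif in capitals.
GPA1 at chrVIII:115252-115276: agcaTGTtaaaaagcACATCAattt
STE5 at chrIV:658142-658166: agctTGTtaatttacACATCAtgta
RME1 at chrVII:584275-584299: gagaTGTcacagattACATCAaaag
NEJ1 at chrXII:675585-675609: tccaTGTaaaaaaatACATCAatca
IME4, after the gene, at chrVII:144203-144227: tccgTGTatttttttACATCAactg
The search for the Q box CAATGACAG, at which α1 acts beside Mcm1, found it before 29 genes (0.483%), among them STE3, the gene for the a-factor receptor.
STE3 at chrXI:114956-114972: gtcaCAATGACAGagaa
A match is a run of letters in this reference and does not show that the site was bound here. Of the 39 tested genes with the operator before them, 12 were called lower and 2 higher in the hybrid, with a median log2 difference of -0.24. Among all tested genes 30.7% were called lower and 20.1% higher. The other 6 haploid-specific genes measured here had no exact match to the operator in the window. Of the 24 tested genes with the Q box before them, 5 were called higher and 4 lower, with a median log2 difference of -0.06. The other α-specific genes measured here, MF(ALPHA)2, YLR040C and SAG1, had no exact match to the Q box in the window.

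Coverage was given by the authors as summed base-level coverage per gene, and each value was expressed in ppm of its column's total, which ran from 162 to 167 Mb in the hybrid columns and from 104 to 146 Mb in the parental columns. All differences below are hybrid minus parent on the scale log2(ppm + 0.5), with the standard error of limma's fit (n = 2 libraries per group), and adjusted p-values are limma's after Benjamini-Hochberg adjustment over all 4557 genes with a mean of at least 3 ppm. A gene is called under an adjusted p of 0.05, and "rose" and "fell" are used of called genes. Of the 4557 genes, 2316 (50.8%) were called: 918 (20.1%) higher and 1398 (30.7%) lower in the hybrid, of which 151 and 332 differed more than 2-fold. A count in a gene group has to be read against those shares. The median over all tested genes was -0.13. Scaling by median of ratios in place of totals shifted that median by 0.12 and turned the split to 1177 higher and 1043 lower. A ppm value grows with the length of a gene, so levels are not compared between genes.

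The difference in mRNA followed the length of the gene, taken from the R64 annotation. Genes of up to 500 bases had a median log2 difference of -0.48, genes of 1500 to 2000 bases one of -0.02, and the 47 genes over 5000 bases one of 0.90, and all 47 of those were called higher. In each of the 4 pairs of a hybrid and a parental library the longest class was the highest, at medians between 0.58 and 1.20, against -0.63 to -0.34 in the shortest. The trend also stood between replicates: in the longest class, hybrid replicate 1 was 0.24 below hybrid replicate 2 and parental replicate 1 was 0.33 above parental replicate 2. In ribosome-protected fragments (RPF), which sample the mRNA that ribosomes are translating, the class medians lay between -0.13 and 0.08. RPF counts in the gene groups below have to be read against 11.4% of 4406 genes called higher and 9.9% called lower in RPF. Values with the trend of every column on gene length removed, an alternative added after the trend had been seen, are called length-adjusted below. Over its 4324 genes with a known length, 983 (22.7%) were called higher and 747 (17.3%) lower. Of the 2186 called genes with a length, 1190 were called in the same direction with and without the adjustment and 10 in opposite directions.

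**Figure D1:**
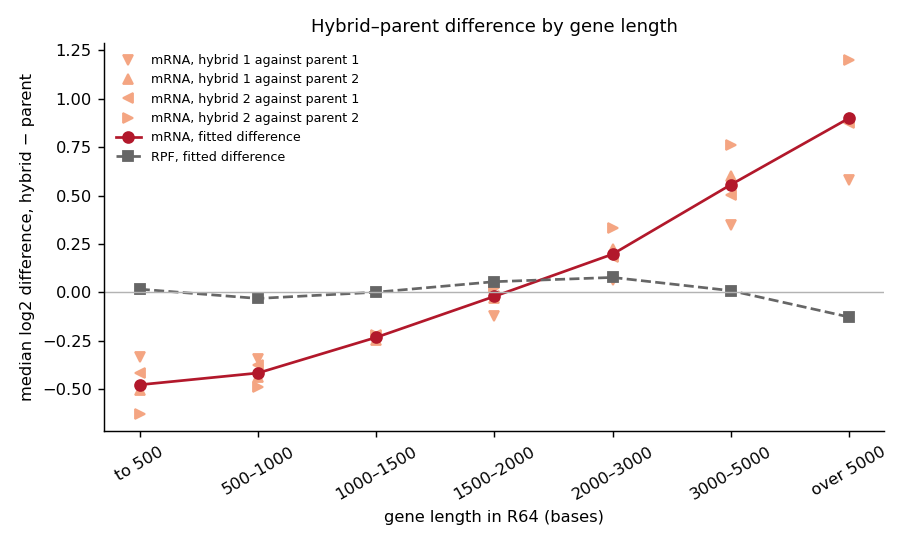
Median log2 difference between hybrid and parent (y axis) for genes grouped by their length in R64 (x axis, bases), in mRNA as fitted (red circles), in each of the 4 pairs of a hybrid and a parental mRNA library (orange triangles) and in RPF (grey squares). The mRNA median climbs from -0.48 in the shortest class to 0.90 in the longest, and the RPF medians stay between -0.13 and 0.08.

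Apart from SAG1, the α-specific genes measured were nearly silent in the hybrid, and all were strongly expressed in the parent. All 4 members measured fell, the least of them SAG1. MF(ALPHA)2, which encodes an α-factor mating pheromone (chrVII:344791-345153), was listed at 0 in both hybrid libraries, against 623 and 688 ppm in the parental libraries, so no fold is given. STE3, the receptor for a-factor (chrXI:113215-114627), had 0.794 and 2.2 ppm in the hybrid libraries and 855 and 854 ppm in the parental libraries, a log2 difference of -8.84 ± 0.27 (adjusted p = 6.2e-12). YLR040C, also named AFB1 (chrXII:228908-229582), had 8.1 and 2.74 ppm in the hybrid and 495 and 592 ppm in the parent (-6.68 ± 0.31, adjusted p = 8.3e-10). SAG1, the cell-wall agglutinin by which α cells stick to a cells (chrX:442909-444861), kept more, with 59.1 and 45.9 ppm in the hybrid against 1116 and 1069 ppm in the parent (-4.38 ± 0.14, adjusted p = 7.1e-12). No hybrid value reached a parental value in any of the 4. Such separation was common, as more of all tested genes showed it in this direction than were called lower (30.7%). In mRNA from a whole culture, fewer cells that express a gene and less RNA in each cell cannot be told apart. Values this close to 0 also make the fold depend on the 0.5 ppm added before the log.

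All 10 haploid-specific genes measured fell, with a list median of -5.11. None of their hybrid values overlapped the parental ones. Among all tested genes, more were separated in this direction than were called lower (30.7%), so the separation does not set these apart. The largest gap was in STE18, the γ subunit of the pheromone-coupled G protein (chrX:586068-586400), with 0.142 and 0.756 ppm in the hybrid and 133 and 181 ppm in the parent (-7.44 ± 0.38, adjusted p = 1.8e-09). The α subunit gene GPA1 (chrVIII:113499-114917) had 8.2 and 7.04 ppm in the hybrid against 392 and 368 ppm in the parent (-5.55 ± 0.18), and the β subunit gene STE4 (chrXV:742910-744181) had 19.3 and 13.9 ppm against 464 and 402 ppm in the same order (-4.68 ± 0.18). All 3 subunits of the G protein were thus lower, and all 3 adjusted p-values were at or below 1.8e-09.

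Downstream of the G protein, FUS3, the mating kinase, had 0.431 and 1.39 ppm in the hybrid against 157 and 175 ppm in the parent (-6.97 ± 0.35, adjusted p = 1.7e-09). FAR1, which halts the cell cycle on pheromone, had 3 and 6.8 ppm in the hybrid against 247 and 195 ppm in the parent (-5.45 ± 0.29, adjusted p = 3.0e-09). STE5, the scaffold that holds the kinases together (chrIV:658350-661103), had 26.7 and 27.6 ppm in the hybrid and 192 and 185 ppm in the parent. Its difference, -2.77 ± 0.16 (adjusted p = 7.5e-09), was the smallest of the list. RME1, which represses entry into meiosis, had 4.76 and 0.594 ppm in the hybrid against 190.5 and 192 ppm in the parent (-6.32 ± 0.48, adjusted p = 1.7e-07), and its hybrid replicates lay far apart. The protease gene AXL1, which also marks the haploid budding site, had 4.47 and 3.83 ppm in the hybrid against 135 and 119 ppm in the parent (-4.78 ± 0.24, adjusted p = 1.8e-09). NEJ1, needed for joining DNA ends, had 5.49 and 11.1 ppm against 109 and 128 ppm in the same order (-3.83 ± 0.28, adjusted p = 1.0e-07). RDH54, a recombination ATPase, kept 45.4 and 37.1 ppm in the hybrid, against 373 and 301 ppm in the parent (-3.01 ± 0.16, adjusted p = 3.0e-09). Among these genes GPA1, STE5, RME1 and NEJ1 carry the operator shown above, and their differences span -2.77 to -6.32. HO and the other α-factor gene, MF(ALPHA)1, were not analysed here.

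The a-specific genes differed far less, and of 3 tested 2 fell. STE2, the α-factor receptor, had 11.5 and 16.4 ppm in the hybrid and 21.7 and 23.9 ppm in the parent, a difference of -0.70 ± 0.28 at the edge of the threshold (adjusted p = 0.049), which was not called when length-adjusted (adjusted p = 0.19) nor with median-of-ratios scaling (adjusted p = 0.099). BAR1, the protease that degrades α-factor, had 6.99 and 6.91 ppm in the hybrid against 14.6 and 15.8 ppm in the parent (-1.07 ± 0.34, adjusted p = 0.017). Without either parental replicate it was not called, at an adjusted p of 0.122 and 0.184. STE6, the a-factor exporter, had 36.6 and 29.3 ppm in the hybrid against 36.8 and 31 ppm in the parent, -0.04 ± 0.22 (adjusted p = 0.88), and length-adjusted it was -0.60 (adjusted p = 0.047). ASG7 stayed under the filter, with 0.776 and 1.96 ppm in the hybrid and 1.09 and 2.17 ppm in the parent. MFA1, MFA2 and AGA2 were not analysed here.

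**Figure D2:**
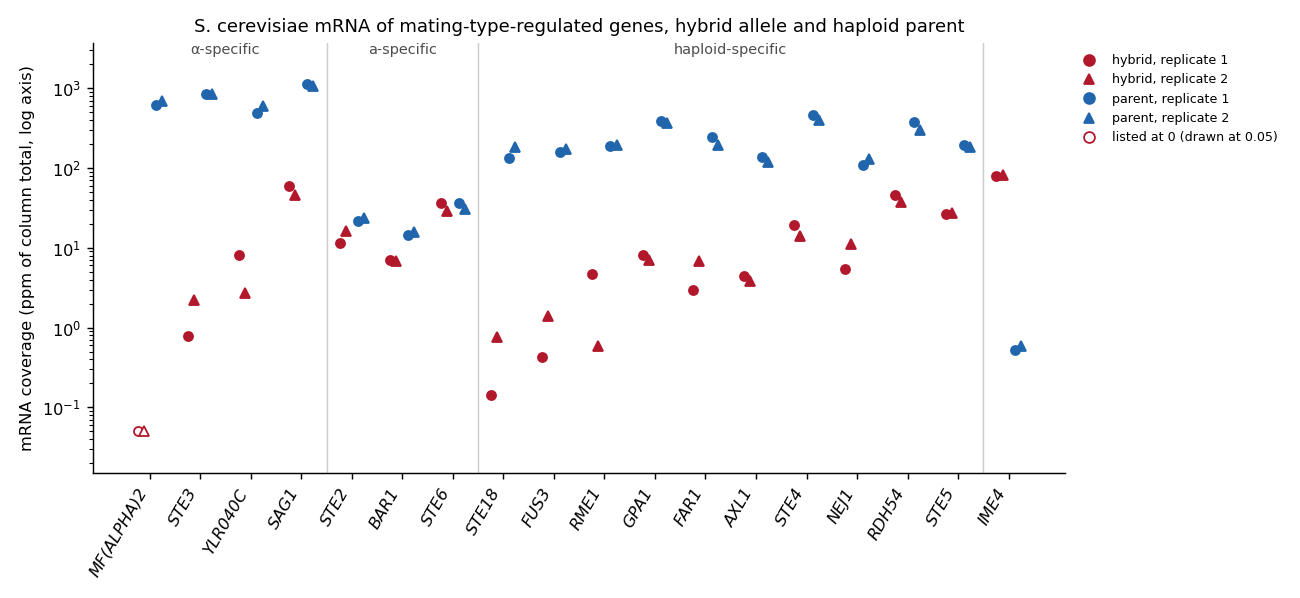
mRNA coverage of each library (y axis, ppm of the column total, log axis) for the α-specific, a-specific and haploid-specific genes and IME4 (x axis), with hybrid libraries in red and parental libraries in blue, circles for replicate 1 and triangles for replicate 2. The hybrid points of the α- and haploid-specific genes lie below the parental ones. They run from MF(ALPHA)2, listed at 0 and drawn at 0.05, to SAG1 at 59.1 and 45.9 ppm. IME4 is the 1 gene with the hybrid far above.

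Genes that respond to pheromone were lower as well. Of 13 tested members of a list of pheromone-response genes, 9 fell and none rose, with a median of -1.49, and the same 9 to 0 count was found length-adjusted. PRM1, a membrane-fusion factor, had 3.1 and 4 ppm in the hybrid against 30.2 and 25.2 ppm in the parent (-2.80 ± 0.35, adjusted p = 2.1e-05). PRM5, a pheromone-regulated membrane protein gene, had 24.4 and 25.3 ppm in the hybrid against 140.5 and 205 ppm in the parent (-2.75 ± 0.19, adjusted p = 6.4e-08). SST2, which switches the G protein off again, had 47.6 and 51 ppm in the hybrid and 242 and 218 ppm in the parent (-2.21 ± 0.15, adjusted p = 3.7e-08). The agglutinin anchor gene AGA1 had 37.5 and 51.1 ppm in the hybrid and 157 and 152 ppm in the parent (-1.81 ± 0.17, adjusted p = 2.0e-06). Not all members moved: FUS2, which acts in cell fusion, had 10.1 and 18.7 ppm in the hybrid and 8.84 and 11.3 ppm in the parent (0.44 ± 0.36, adjusted p = 0.32).

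IME4, the mRNA methyltransferase gene that acts in the entry into meiosis (chrVII:142246-144048), was the counterpart. It had 78.3 and 80.5 ppm in the hybrid libraries, against 0.519 and 0.595 ppm in the parental libraries, and rose by 6.24 ± 0.37 (adjusted p = 8.6e-09). In RPF it had 28.3 and 33.4 ppm in the hybrid and was listed at 0 in both parental libraries. An antisense transcript is known to oppose IME4 in haploid S. cerevisiae cells, and the operator shown above lies past the 3′ end of the gene. The labels do not say whether the counting kept the strands apart, so sense and antisense reads of a gene cannot be told apart. Of 14 tested members of the meiosis list, IME4 was the 1 that rose and 4 fell, namely NDT80, the meiotic axis gene HOP1, SPO11, which cuts DNA for recombination, and the kinase gene IME2. IME1, the master regulator of meiotic entry, had 27.7 and 41.4 ppm in the hybrid against 28.3 and 34.9 ppm in the parent (0.11 ± 0.24, adjusted p = 0.73). NDT80, the mid-meiotic activator, had 2.38 and 0.888 ppm in the hybrid and 5.14 and 8.68 ppm in the parent (-1.85 ± 0.62, adjusted p = 0.022). Without parental replicate 1, and likewise without parental replicate 2, no member of this list was called lower. Length-adjusted, SPS4, a sporulation gene, was called higher (0.59, adjusted p = 0.037, against 0.25 ± 0.20 and an adjusted p of 0.33 without the adjustment), and HOP1 (adjusted p = 0.056) and SPO11 (adjusted p = 0.11) were not called lower. SPO13 stayed under the filter, with 0.727 and 1.08 ppm in the hybrid and 3.32 and 4.6 ppm in the parent.

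The strains crossed are given as ura::KAN and ura::HYG, and the replaced gene is taken here to be URA3, which the labels do not name. URA3 is the orotidine-5′-phosphate decarboxylase gene of pyrimidine synthesis (chrV:116167-116970). It had 10.6 and 3.99 ppm in the hybrid libraries, against 248 and 214 ppm in the parental libraries (-5.03 ± 0.31, adjusted p = 1.5e-08). The parental libraries thus held URA3 coverage, whereas the label of the hybrid gives its S. cerevisiae strain as ura::KAN and the label of the parent gives no genotype. LYS2, the other marker named, was not analysed here.

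Other genes of pyrimidine synthesis moved the other way. Of 7 tested pyrimidine genes apart from URA3, 5 rose and 1 fell, and in RPF 5 of 7 rose and none fell. URA1, dihydroorotate dehydrogenase (chrXI:25215-26159), had 1169 and 1308 ppm in the hybrid libraries against 256 and 259.6 ppm in the parental libraries (2.26 ± 0.13, adjusted p = 6.6e-09). URA4, dihydroorotase, had 473 and 486 ppm in the hybrid against 257 and 271 ppm in the parent (0.86 ± 0.13, adjusted p = 7.7e-05). PPR1, the activator of this pathway, had 111 and 90.8 ppm in the hybrid and 63.3 and 55.3 ppm in the parent (0.76 ± 0.17, adjusted p = 0.0019), or 0.47 length-adjusted. URK1, uridine kinase, differed by 0.45 ± 0.13 (adjusted p = 0.011). URA5, an orotate phosphoribosyltransferase, had 547 and 450.5 ppm in the hybrid against 467 and 461 ppm in the parent and was not called (0.10 ± 0.13, adjusted p = 0.57), but was called higher length-adjusted (0.56, adjusted p = 0.0025). Without parental replicate 2, 2 genes of the list were called higher and none lower. Ppr1 binds paired CGG triplets, and CGGNNNNNNCCG was found before 187 of the 6002 genes (3.12%), among them the genes below, at positions of R64 with the triplets in capitals.
URA1 at chrXI:24999-25018: tcacCGGgctttgCCGaagg
URA1 at chrXI:25030-25049: tcttCGGcattcgCCGaaaa
URA4 at chrXII:963651-963670: cattCGGagaattCCGatga
URA3 at chrV:116011-116030: gattCGGtaatctCCGagca
Of the 126 tested genes with this motif, 25 were called higher and 40 lower, against 20.1% and 30.7% of all tested genes.

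In lysine synthesis, the pathway of the other marker, 3 of 8 tested genes rose and 1 fell, against 3 and none length-adjusted. LYS21, a homocitrate synthase gene, had 268 and 276 ppm in the hybrid against 158 and 156 ppm in the parent (0.79 ± 0.13, adjusted p = 0.00019), and LYS4, homoaconitase, had 289.7 and 293 ppm against 189.6 and 174 ppm in the same order (0.68 ± 0.13, adjusted p = 0.00062).

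Most genes of respiration measured rose. Of 26 tested subunits and partners of the respiratory chain and ATP synthase, 15 rose and 1 fell in mRNA, with a median of 0.52, and 21 rose and none fell in RPF. These are mostly short genes, with a median length of 572 bases, and length-adjusted 21 rose, with a median of 0.92. CYC1, the main cytochrome c (chrX:526335-526664), had 419.9 and 401 ppm in the hybrid libraries against 79.7 and 95.1 ppm in the parental libraries (2.23 ± 0.14, adjusted p = 1.6e-08). CYT1, cytochrome c1, had 432 and 351 ppm in the hybrid against 150.2 and 126 ppm in the parent (1.50 ± 0.15, adjusted p = 2.2e-06). RIP1, the Rieske iron-sulfur protein of the same complex, had 149 and 122 ppm in the hybrid against 52 and 54.3 ppm in the parent (1.33 ± 0.16, adjusted p = 1.7e-05). NDE1, an NADH dehydrogenase of the inner membrane, had 1067 and 1066 ppm in the hybrid against 396 and 376 ppm in the parent (1.47 ± 0.13, adjusted p = 6.9e-07). In all 4 of these genes, named for their large differences, the hybrid values lay above the parental ones. The same held for 1388 of all 4557 tested genes. Without hybrid replicate 1, 12 genes of the list were called higher and 3 lower.

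YHB1, the flavohaemoglobin that destroys nitric oxide (chrVII:959904-961103), had the largest fall among genes with a mean of at least 50 ppm apart from α-specific and haploid-specific genes and URA3. It had 276 and 246 ppm in the hybrid libraries, against 2094 and 1861 ppm in the parental libraries (-2.92 ± 0.13, adjusted p = 6.9e-10), and its RPF difference was -2.67. YHB1, CYC1 and CYT1 stand together on a list of genes known to respond to the haem-dependent activator Hap1. Of its 6 tested members CYC1 and CYT1 rose, YHB1 fell, and CYC7, CYB2 and ERG11 were not called, while ERG11 was called higher length-adjusted (0.35, adjusted p = 0.032). CYB2, lactate dehydrogenase, had 12.8 and 35.6 ppm in the hybrid against 11.9 and 15.5 ppm in the parent (0.64 ± 0.38, adjusted p = 0.18), with its hybrid replicates far apart. HAP1 itself was not analysed here.

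The tricarboxylic acid cycle did not follow the respiratory chain: 1 of 9 tested genes rose and 5 fell, and 3 and 3 did length-adjusted. IDH2, a subunit of isocitrate dehydrogenase, had 338 and 356 ppm in the hybrid against 815 and 987 ppm in the parent (-1.37 ± 0.14, adjusted p = 2.6e-06). LSC2, of succinyl-CoA ligase, differed by -0.93 ± 0.13 (adjusted p = 4.9e-05). KGD1, of α-ketoglutarate dehydrogenase and longer than 3000 bases, rose by 1.01 ± 0.15 in mRNA (adjusted p = 9.3e-05), or 0.63 length-adjusted, and was not called in RPF, at -0.43 (adjusted p = 0.099). Without parental replicate 2, 3 genes of the cycle were called lower. MDH2, the cytosolic malate dehydrogenase (chrXV:81787-82920), was among the largest rises, with 293 and 419 ppm in the hybrid against 60.4 and 64.4 ppm in the parent (2.48 ± 0.17, adjusted p = 3.6e-08). Other glucose-repressed genes did not share it: of 8 tested, MDH2 was the 1 that rose and 3 fell, among them PCK1, of gluconeogenesis, with 3.8 and 2.07 ppm in the hybrid against 12.3 and 15.7 ppm in the parent (-2.11 ± 0.45, adjusted p = 0.0014). That count of falls was 1 without parental replicate 1, 0 without parental replicate 2 and 5 without hybrid replicate 2, and 4 length-adjusted.

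Ribosome biogenesis rose as a block. Of 74 tested genes, 67 rose and none fell, with a median of 0.76, against 20.1% of all genes called higher. In RPF 65 of the 74 rose and none fell, with a median of 0.80, and length-adjusted 73 rose and none fell. NSR1, a nucleolar protein of pre-ribosomal RNA processing, had 1001 and 934 ppm in the hybrid libraries against 295 and 290.0 ppm in the parental libraries (1.72 ± 0.13, adjusted p = 1.1e-07). UTP20, of the small-subunit processome, had 689 and 799 ppm in the hybrid against 247 and 194 ppm in the parent (1.76 ± 0.14, adjusted p = 4.1e-07), and for this gene of 7482 bases the length-adjusted difference was 0.73. The same held for RRP5 (1.67 ± 0.14, or 0.90 length-adjusted) and UTP10 (1.66 ± 0.15, or 0.87), both long genes of that particle. In RPF NSR1 and RRP5 were called higher (1.38 and 0.69), whereas UTP20 was not called (0.48, adjusted p = 0.081). Differences were modest for most of the list, and 17 of the 74 passed a test against a 1.5-fold difference.

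The proteins of the ribosome itself gave a different picture. Of 22 tested cytosolic ribosomal protein genes, none rose and 3 fell in mRNA, whereas 10 rose and none fell both in RPF and length-adjusted, and 3 rose and none fell with median-of-ratios scaling. RPS25A had 1974 and 1940.2 ppm in the hybrid and 2435 and 2959 ppm in the parent (-0.46 ± 0.16, adjusted p = 0.026), or 0.17 length-adjusted. Its near-identical copy RPS25B could share reads with it. The 3 falls were 5 without parental replicate 1 and 0 without hybrid replicate 2 or parental replicate 2. Of 47 mitochondrial ribosomal protein genes, 6 rose and 1 fell in mRNA, 20 rose and none fell in RPF, and 34 rose and none fell length-adjusted. MRPL4 had 221 and 217 ppm in the hybrid against 128 and 157 ppm in the parent (0.63 ± 0.14, adjusted p = 0.0022), or 0.99 length-adjusted. The mRNA count moved to 5 higher and 9 lower without hybrid replicate 1, to 3 and 2 without parental replicate 1 and to 1 and 0 without parental replicate 2.

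Subunits of the proteasome, the protein-degrading complex, were lower in mRNA as measured and not once length-adjusted. Of 31 tested, 17 fell and none rose in mRNA, with a median of -0.36 and a median length of 867 bases. Length-adjusted no subunit was called, with a median of -0.00, and in RPF 1 rose and none fell. PUP1 had 338 and 252 ppm in the hybrid against 452 and 517 ppm in the parent (-0.73 ± 0.15, adjusted p = 0.0011), against -0.29 length-adjusted (adjusted p = 0.085) and -0.04 in RPF. Without parental replicate 2 the count of falls was 10.

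Genes of daughter-cell separation, which daughters switch on after division to cut the septum, were lower. Of 11 tested, 8 fell and none rose, and in RPF 8 of 11 fell as well, against 9 length-adjusted. CTS1, the chitinase that opens the septum (chrXII:708448-710136), had 454 and 477 ppm in the hybrid libraries against 2235 and 2196 ppm in the parental libraries (-2.25 ± 0.13, adjusted p = 8.6e-09). AMN1, a daughter-specific inhibitor of mitotic exit that also keeps cells attached in some strains, had 143 and 154 ppm in the hybrid against 664 and 574 ppm in the parent (-2.05 ± 0.13, adjusted p = 2.4e-08). Without the genes that the table marks for ploidy or mating type, the count of falls was 4. DSE1 had 209 and 255 ppm in the hybrid against 791 and 696 ppm in the parent (-1.68 ± 0.14, adjusted p = 4.2e-07), and NIS1, a bud-neck protein gene, differed by -1.61 ± 0.15 (adjusted p = 1.8e-06). ASH1, which is placed in daughters through its localized mRNA, had 248 and 310.0 ppm in the hybrid and 357 and 330.2 ppm in the parent and was not called (-0.31 ± 0.14, adjusted p = 0.078). Among 10 G1 cyclins and partners, 2 rose and 5 fell. CLN3, the first cyclin of G1, had 173 and 173 ppm in the hybrid against 63.5 and 62.4 ppm in the parent (1.45 ± 0.15, adjusted p = 2.7e-06), while its RPF difference was -0.25 (adjusted p = 0.68). PCL2, a cyclin of the kinase Pho85, had 52.9 and 60.8 ppm in the hybrid against 128 and 122 ppm in the parent (-1.13 ± 0.16, adjusted p = 4.9e-05). Without either parental replicate, and length-adjusted, 3 of the 10 were called lower.

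Genes of the phosphate regulon, which the activator Pho4 switches on when phosphate runs low, fell in 6 of 9 tested cases and rose in none, with a median of -0.95 against -0.13 for all genes. PHO8, the vacuolar alkaline phosphatase (chrIV:1418550-1420250), had 151 and 159 ppm in the hybrid libraries against 587 and 579.9 ppm in the parental libraries (-1.91 ± 0.13, adjusted p = 3.1e-08). VTC1, of the complex that makes polyphosphate, had 597 and 535 ppm in the hybrid against 1582 and 1799 ppm in the parent (-1.58 ± 0.14, adjusted p = 8.1e-07), or -0.99 length-adjusted. PHM6 differed by -2.43 ± 0.24 (adjusted p = 2.4e-06) and PHM8, a nucleotide phosphatase gene, by -1.87 ± 0.31 (adjusted p = 0.00021). PHO84, the phosphate transporter, had 455 and 458 ppm in the hybrid and 551 and 529 ppm in the parent and was not called in mRNA (-0.24 ± 0.13, adjusted p = 0.12). In RPF it had 501 and 442 ppm in the hybrid against 1751 and 1220.1 ppm in the parent (-1.63, adjusted p = 6.7e-08), and 7 of the 9 genes fell there.

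**Figure D3:**
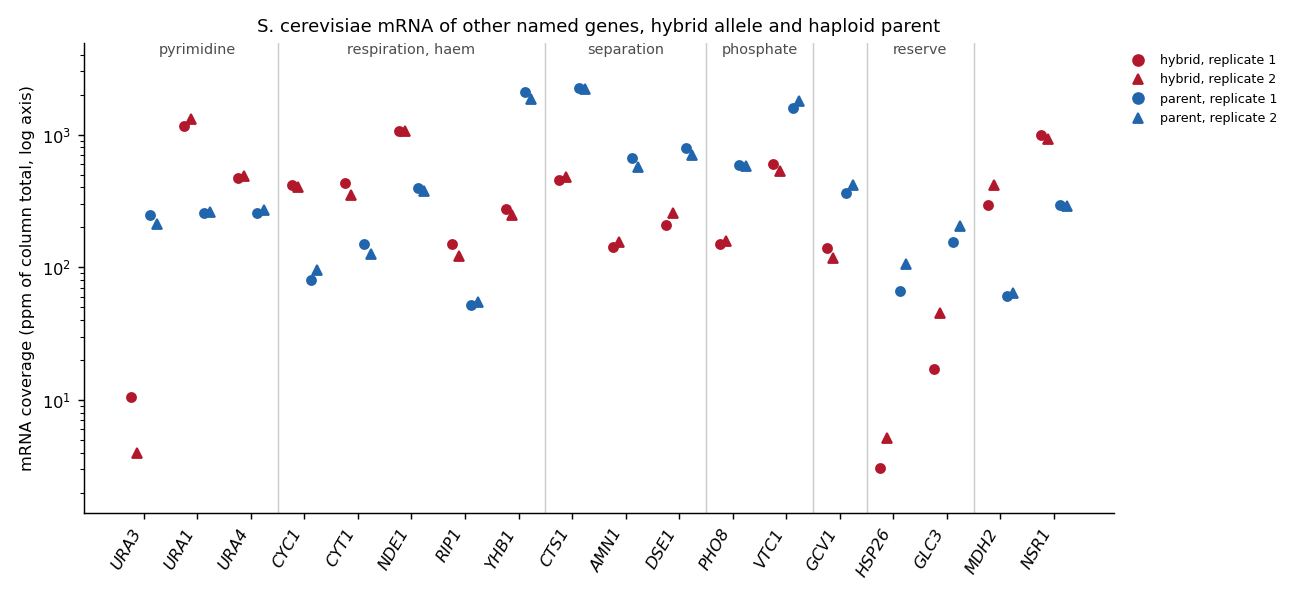
mRNA coverage of each library (y axis, ppm of the column total, log axis) for genes of pyrimidine synthesis, respiration and haem, daughter-cell separation, phosphate, one-carbon metabolism (GCV1), stress and reserve carbohydrate, and for MDH2 and NSR1 (x axis), with hybrid libraries in red and parental libraries in blue. In each gene shown the 2 hybrid points lie on 1 side of the 2 parental points, from HSP26, at most 5.14 ppm in the hybrid, to CTS1, at least 2196 ppm in the parent. Of all 4557 tested genes, 1388 had both hybrid values above the parental ones, and more had both below. The separation therefore does not set the genes shown apart.

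Stress and reserve-carbohydrate genes were lower in the hybrid: 14 of 18 tested fell and none rose, with a median of -0.94, and 13 fell and 1 rose length-adjusted. HSP26, a small heat-shock protein gene, had 3.07 and 5.14 ppm in the hybrid libraries against 66.4 and 106 ppm in the parental libraries (-4.23 ± 0.31, adjusted p = 1.1e-07). HSP12, which encodes a membrane-protecting protein, had 0.567 and 0.072 ppm in the hybrid against 12.5 and 20.9 ppm in the parent (-4.42 ± 0.62, adjusted p = 5.8e-05). GLC3, the glycogen-branching enzyme, had 17 and 45.3 ppm in the hybrid against 155 and 203 ppm in the parent (-2.65 ± 0.31, adjusted p = 1.1e-05). With 1 spread estimated over mRNA and RPF together, 9 of the 18 were called lower. The glycolytic genes measured pointed the same way: 4 of 5 fell, or 2 of 5 length-adjusted, led by TDH1, a minor glyceraldehyde-3-phosphate dehydrogenase, with 11.4 and 2.39 ppm in the hybrid against 61.9 and 65.2 ppm in the parent (-3.45 ± 0.45, adjusted p = 3.1e-05).

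One-carbon and sulfur metabolism were lower in part. Of 13 tested genes of purine synthesis and one-carbon metabolism 7 fell and 2 rose, and all 3 genes of the glycine decarboxylase complex on the list were among the falls. GCV1 had 139 and 116 ppm in the hybrid against 360.1 and 416 ppm in the parent (-1.60 ± 0.14, adjusted p = 8.3e-07), GCV2 differed by -1.12 ± 0.15 and GCV3 by -1.60 ± 0.15, or -1.08 length-adjusted, and all 3 were called lower in RPF. Of 21 tested methionine and sulfur genes 10 fell and 1 rose, or 9 fell and 2 rose length-adjusted and 9 fell and 3 rose with median-of-ratios scaling. MET17, which makes homocysteine, had 115 and 79.4 ppm in the hybrid against 219 and 228 ppm in the parent (-1.22 ± 0.17, adjusted p = 4.5e-05). MET28, a cofactor of the pathway's activator, had 6.58 and 1.66 ppm in the hybrid against 18.6 and 18.3 ppm in the parent (-2.28 ± 0.49, adjusted p = 0.0015). The 10 falls were 7 without parental replicate 1 and 3 without parental replicate 2.

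Nitrogen uptake and amino acid synthesis were mixed. PUT4, the proline permease (chrXV:986899-988782), had 115 and 163 ppm in the hybrid libraries against 32.8 and 33.5 ppm in the parental libraries (2.03 ± 0.19, adjusted p = 1.2e-06), whereas UGA1, of GABA use, had 32.8 and 36.8 ppm in the hybrid against 101 and 129.8 ppm in the parent (-1.71 ± 0.18, adjusted p = 4.5e-06). Both belong to the 12 tested genes under nitrogen catabolite repression, of which 2 rose and 6 fell. Length-adjusted 3 rose and 5 fell, and without parental replicate 2 the falls were 2. Of 8 genes of branched-chain amino acid synthesis 6 rose and 1 fell, or 5 and none length-adjusted and 6 and none with median-of-ratios scaling, led by ILV5, acetohydroxyacid reductoisomerase, at 529.6 and 648 ppm in the hybrid against 339 and 294 ppm in the parent (0.89 ± 0.14, adjusted p = 0.00014). Of 14 arginine genes 5 rose and 3 fell, with CAR1, arginase, at 773 and 697 ppm in the hybrid against 302 and 342 ppm in the parent (1.19 ± 0.13, adjusted p = 7.1e-06) and ARG4, argininosuccinate lyase, at 112 and 125 ppm against 246 and 239.8 ppm in the same order (-1.04 ± 0.14, adjusted p = 2.9e-05). The falls of that list were 1 without either parental replicate, length-adjusted or with median-of-ratios scaling. Of 8 amino acid permeases 4 rose and 1, the general permease GAP1, fell (-1.08 ± 0.26, adjusted p = 0.0033). Without either parental replicate no permease was called lower.

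Among genes of metal uptake some rose and some fell. Of 11 iron genes 3 rose and 5 fell, or 4 and 4 length-adjusted, with the reductase gene FRE1 at 1023 and 1123 ppm in the hybrid against 574 and 344 ppm in the parent (1.27 ± 0.19, adjusted p = 8.2e-05) and the haem oxygenase gene HMX1 at 102 and 147 ppm against 55.3 and 57.9 ppm in the same order (1.11 ± 0.18, adjusted p = 0.00019). Without parental replicate 2 the falls were 3. Of 9 zinc genes 2 rose and 2 fell, or 3 and 1 length-adjusted, among them the transporter gene ZRT1 (1.06 ± 0.16, adjusted p = 0.00012) and IZH4, of the zinc-regulated membrane proteins (-1.95 ± 0.24, adjusted p = 1.9e-05), and without single libraries 1 or 2 rose and 1 or 2 fell. Of 19 ergosterol genes 5 rose and none fell, or 10 rose length-adjusted and 9 with median-of-ratios scaling, and without parental replicate 1 the count was 3 higher and 1 lower. ERG5, a desaturase of that pathway, had 428 and 447 ppm in the hybrid against 263 and 247 ppm in the parent (0.78 ± 0.13, adjusted p = 0.00018). Of 5 genes of glucose sensing and hexose transport 2 rose, namely SNF3 and RGT1, and neither was called length-adjusted (adjusted p = 0.1 and 0.56) or without either parental replicate. All 3 histone genes measured fell, and 1 of them, HHO1, was still called length-adjusted.

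**Figure D4:**
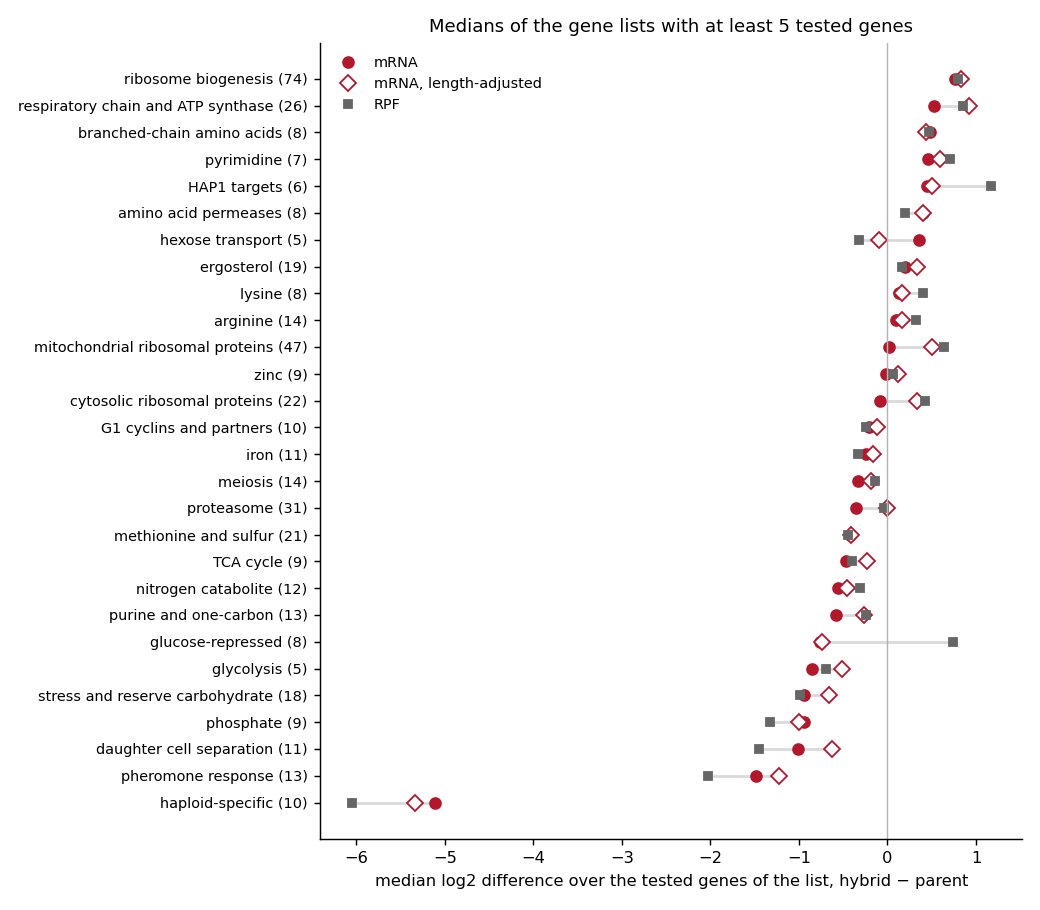
Median log2 difference between hybrid and parent (x axis) over the tested genes of each list with at least 5 of them (y axis, number tested in brackets), in mRNA (red circles), length-adjusted mRNA (open diamonds) and RPF (grey squares). Ribosome biogenesis is at 0.76, 0.83 and 0.80 in the 3 measures and the haploid-specific genes at -5.11, -5.33 and -6.05, whereas the proteasome is at -0.36 in mRNA and at -0.00 length-adjusted.

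Among the genes with the largest rises and a mean of at least 50 ppm, several belong to no list above. The rule gave 15 genes, of which 3 are known only under the identifiers of the table. The largest rise was that of a gene listed as Scer_14.442, with 107 and 174 ppm in the hybrid against 16.4 and 22.7 ppm in the parent (2.79 ± 0.23, adjusted p = 4.7e-07). OPT2, an oligopeptide transporter gene, had 123 and 112 ppm in the hybrid against 25.7 and 24.6 ppm in the parent (2.20 ± 0.18, adjusted p = 3.1e-07). SFK1, which helps recruit a phosphoinositide kinase to the plasma membrane, had 162 and 142 ppm in the hybrid against 38.6 and 28.5 ppm in the parent (2.18 ± 0.18, adjusted p = 4.7e-07). SFL1, a repressor of flocculation genes, had 98.7 and 92.7 ppm in the hybrid against 22.4 and 28.6 ppm in the parent (1.90 ± 0.19, adjusted p = 2.9e-06). TIR3, a cell-wall mannoprotein gene, had 127 and 98 ppm in the hybrid against 24.9 and 40.9 ppm in the parent (1.79 ± 0.22, adjusted p = 2.0e-05). MOT1, the ATPase that strips TATA-binding protein from DNA, had 386 and 397 ppm in the hybrid against 131 and 114 ppm in the parent (1.67 ± 0.13, adjusted p = 2.7e-07), and for this gene of 5604 bases the length-adjusted difference was 0.85. In RPF Scer_14.442, SFK1, TIR3 and MOT1 were called higher too, whereas OPT2 and SFL1 were not called (adjusted p = 0.089 and 0.18).

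The same S. cerevisiae alleles were read in RPF, in libraries that the mRNA comparison did not use. Of 4406 genes tested there, 502 (11.4%) were called higher and 436 (9.9%) lower in the hybrid. A total of 692 genes were called in both measures, and 673 of them had the same sign, 313 higher and 360 lower. These 673 are 29.1% of the mRNA calls and 71.7% of the RPF calls. Across the 4404 genes tested in both, the differences correlated with r = 0.72, or 0.80 with the mRNA length-adjusted. Genes are not independent replicates, and both measures come from the same strains.

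Some genes differed more in RPF than in mRNA. A fit over all 8 libraries, added after this had been seen, tested the RPF difference minus the mRNA difference and called 103 of 4404 genes, 29 with a higher and 74 with a lower RPF difference. In SAG1 the hybrid kept 59.1 and 45.9 ppm of mRNA but had 1.39 and 1.52 ppm in RPF, against 2569.9 and 2265 ppm in parental RPF, and the RPF difference lay -5.89 from the mRNA difference (adjusted p = 3.9e-09). AGA1 had 2.76 and 9.61 ppm of RPF in the hybrid against 641 and 648 ppm in the parent (-5.01, adjusted p = 0.00021). STE5 had 0.332 and 0 ppm of RPF in the hybrid against 97.1 and 87.4 ppm in the parent (-4.39, adjusted p = 0.00021). SST2 had 7.17 and 3.27 ppm of RPF in the hybrid against 211 and 162 ppm in the parent (-2.90, adjusted p = 0.0027). In these 4 mating genes the hybrid thus held mRNA coverage with little RPF coverage beside it. Of the α-specific and haploid-specific genes measured, only SAG1 and STE5 passed this test. STE18 and GPA1 did not pass it (adjusted p = 0.62 and 0.69). RDH54 and STE4 did not pass it either (adjusted p = 0.54 and 0.59) and kept RPF coverage beside their mRNA. In the hybrid RDH54 had 24.8 and 35.7 ppm of RPF, and STE4 had 4.99 and 15 ppm. The length trend of mRNA enters this test too, with a median of -0.61 in genes over 3000 bases and 0.40 in genes of up to 1000 bases.

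Only 19 genes were called with opposite signs, 12 of them higher in mRNA and lower in RPF. Of the 18 with a mean of at least 50 ppm in both measures, the 11 that rose in mRNA had a median length of 4391 bases and the 7 that fell one of 504 bases. TDA1, a kinase gene, had 367 and 471 ppm of mRNA in the hybrid against 212 and 211 ppm in the parent (0.97 ± 0.14, adjusted p = 7.4e-05), and 51 and 51.9 ppm of RPF in the hybrid against 134 and 186 ppm in the parent (-1.61, adjusted p = 1.0e-05). YCR061W had 78.1 and 59.4 ppm of mRNA in the hybrid against 34.4 and 39.2 ppm in the parent (0.88 ± 0.20, adjusted p = 0.0019), and its RPF difference was -1.47 (adjusted p = 3.6e-06). For both the difference between the measures itself passed the test (adjusted p = 0.00021 and 0.0011), and their length-adjusted mRNA differences were 1.01 and 0.86. DUR1,2, urea amidolyase and a gene of 5508 bases, rose by 1.14 ± 0.14 in mRNA, or 0.33 length-adjusted, and fell by 0.81 in RPF (adjusted p = 0.014).

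**Figure D5:**
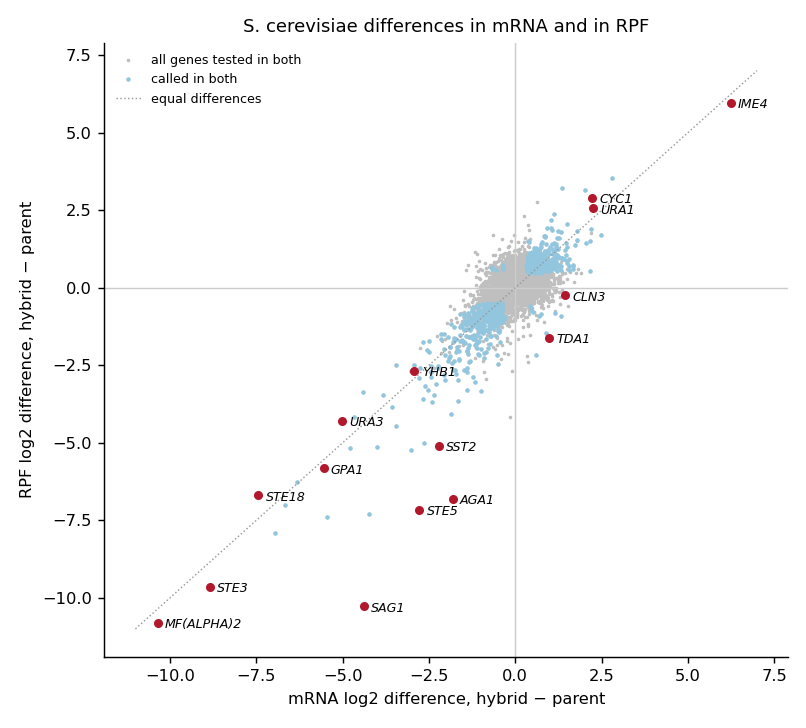
Log2 difference between hybrid and parent in RPF (y axis) against that in mRNA (x axis) for the 4404 genes tested in both (grey), with the 692 called in both in blue, named genes in red and a dotted line where both differences are equal. Most named genes lie near the line, and SAG1, AGA1, STE5, SST2, TDA1 and CLN3 lie below it. The places of genes at or near 0, such as MF(ALPHA)2, rest on the 0.5 ppm added.

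Chromosome medians lay close together in mRNA. Those of the 16 nuclear chromosomes ran from -0.23 on chromosome IX to -0.04 on chromosome XII, a distance of at most 0.104 from the median of all genes. In the pairs of single libraries that distance was between 0.0918 and 0.204. The table also marks genes from published sets. Of 35 tested genes marked as affected by ploidy 23 fell and 2 rose, with a median of -0.80, against 1375 and 916 of the 4522 others, with a median of -0.13. Of 18 tested genes marked for mating type 10 fell and 3 rose, with a median of -0.66. Genes marked with a TATA box were called in 58.7% of 496 cases, against 48.9% of the 2971 genes marked as without one.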

How the data were processed

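Poly-A selected mRNA and RPF were sequenced from the hybrid and its parents. The authors deposited, for each gene and library, the total base-level coverage of the S. cerevisiae allele over its unmasked bases, a signal and not a read count, per the file that describes the columns. CASAVA 1.8.2 and Bowtie 0.12 are named in the submitters' processing notes, and gene pairs came from a published comparison of the species. No label or header names the genome build. The depth in reads is unknown, so no counting interval is given. RPF of the parent came from both parents mixed, with replicate 2 sequenced in 2 lanes. The table also holds marks of 1 or 0 from published gene sets.

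Each column was divided by its total and expressed in ppm. Of 4637 genes, 80 under a mean of 3 ppm were left out, and 6, 23, 9 and 4 genes were at 0 in hybrid replicates 1 and 2 and parental replicates 1 and 2. limma 3.58.1 in R 4.3.3 was fitted to log2(ppm + 0.5) with a variance trend on mean coverage, 2 libraries against 2, two-sided. The fit was also run on simulated columns with normal noise and no length trend, which cannot show how the calls behave under that trend. Of the per-sample columns 32 were not used. A total of 4401 genes were matched to R64 (RefSeq) by systematic name, and 235 had none. Length was the span of the gene, and a loess trend (span 0.5) on log2 length was removed per column for the length-adjusted values.

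The members and lists were chosen with earlier results of these data known, and lists are described by counts and medians with no set test. Genes named are URA3, the mating and meiosis markers, the 15 largest called rises and 15 largest falls with a mean of at least 50 ppm and groups that do not overlap, up to 4 called members of each list and members that were not called, and up to 5 genes with opposite RPF calls. The alternatives covered scaling, pseudocount, filter, variance trend, shared spread, a 1.5-fold test, the replicate number as a block, the marked genes and each library left out. The length adjustment, the crossed pairing and the test of RPF minus mRNA were added after the data had been seen.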

Additional observations from a re-analysis of the deposited data

How the results depend on the processing

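Against 2316 mRNA calls, the counts of calls were 2220 with median-of-ratios scaling, 2313 and 2330 with 0.25 and 2 ppm added before the log, 2285 with no filter, 2246 with a filter at 20 ppm, 2100 with no variance trend, 2282 without the marked genes and 1730 length-adjusted. They fell to 1339 with the spread shared over mRNA and RPF and to 342 in a test against a 1.5-fold difference. With 1 library left out, the count ran between 1151 (without parental replicate 2) and 2293 (without hybrid replicate 1), and the lone library was then assumed to vary like the other group. Against 938 RPF calls, there were 495 with no filter, 310 with no variance trend and 171 in the 1.5-fold test, and between 557 and 1228 with 1 library left out, the lowest without parental replicate 1 and 616 without parental replicate 2. The largest distance of a chromosome median from that of all genes was 0.104, and 0.204 between hybrid replicate 1 and parental replicate 2. The cause of these moves was not tested. With the replicate number as a replicate block, 2109 genes were called in mRNA and 948 in RPF. Same-numbered libraries did not deviate together across genes (r = -0.13 in mRNA and -0.06 in RPF). The length trend between mRNA replicates enters the mRNA value, and neither value can show whether same-numbered libraries were handled together. The crossed pairing, added after the data had been seen, gave 2580 and 1082 calls. Over 607 values of 39 named genes under the alternatives, 585 kept direction and side of the threshold, 18 were no longer called, 1 became called and 3 changed sign. The 3 were all of STE6, which was not called at -0.045 and lay at 0.075 with median-of-ratios scaling and between -0.20 and 0.11 with 1 library left out, above 0 without hybrid replicate 2 or parental replicate 1. The median of 6 of the 31 lists changed sign under at least 1 alternative, namely meiosis, arginine, zinc, hexose transport and the cytosolic and mitochondrial ribosomal proteins. The 18 were 10 values of STE2, 4 of BAR1, 2 of a gene known only by its table identifier and 1 each of TDA1 and YCR061W, and STE6 became called when length-adjusted. Coverage without read counts sets no limit on what a value near 0 can show, so folds of genes near 0 ppm rest on the pseudocount.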
